A study of Rattus norvegicus with 6 samples.

Results

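The transcripts described here are 32 markers of Kupffer cells, the macrophages that live in liver sinusoids, and of other myeloid cells (monocytes and neutrophils). They were chosen by symbol, through the RefSeq accession of each array probe, out of 15645 gene symbols with a named probe. Of the 32, 31 had at least 1 named probe (54 probes in all, of 61537 on the array) and 29 were bright enough to be tested. Timd4 had no named probe, and Itgam and Ccr2 were too dim for the test. Liver RNA came from 6 male Sprague-Dawley (Crl:CD(SD)) rats, bought at 5 weeks of age and fed a basal diet, with 1 array per animal. The vehicle group (n = 3) received corn oil. The treated group (n = 3) received the 4,4'-Thiobis compound of 6-tert-Butyl-m-Cresol, here TBBC, a phenolic antioxidant, at 300 mg/kg/day. Series text and protocol differ on the time of dosing: the first speaks of 28 days, the second of 9 weeks.

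Kupffer cells take up particles, dying cells and bacterial products from portal blood. Their development depends on the transcription factor PU.1, the product of Spi1, and on the growth factor receptor encoded by Csf1r. In rodents the lectin Clec4f and the complement receptor Vsig4 mark resident Kupffer cells. The chemokine receptor Ccr2 marks monocytes that enter from blood, and the calgranulins S100a8 and S100a9 are abundant in neutrophils.

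Each array carried 61537 probes other than controls. Their 75th percentile lay between 465.2 and 638.2 intensity units, and 60.0% to 64.0% of them were well above background. All values below are log2 signal minus that array's 75th percentile, always in the order replicate 1, 2, 3. Values of different genes come from different probes and are not compared with each other. The 3 vehicle arrays shared 1 slide and scan and the 3 TBBC arrays another, so slide and treatment cannot be told apart. The number of arrays limits the precision throughout. Whole liver was measured, so that fewer cells of a type and less RNA per cell cannot be told apart. All 29 tested members were well above background on all 6 arrays, among them 6 of 7 markers of Kupffer cell identity.

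The comparison of TBBC with vehicle asks whether the myeloid transcripts of the liver differ after dosing. None of the 29 tested members passed the test, against 3.08% of all features. In 27 of 29 members the standard deviation among animals of a group was larger than the difference between the groups. This count was not taken over all features, and with 3 animals per group a gene without any difference often meets it. The median standard deviation was 0.56 in the members and 0.20 over all features. Vehicle replicate 3 and TBBC replicate 3 were the livers richest in these transcripts, and this held for macrophage genes such as Vsig4, C1qa and Cd68. The neutrophil calgranulins, Cd14, Spi1 and Cx3cr1 followed other orders.

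By limma with Benjamini-Hochberg adjustment over 29326 features, 0 of 29 members were past an adjusted p of 0.05, against 3.08% of all features. The adjusted p of the members ran from 0.206 to 0.983. At an unadjusted p under 0.05 the count was 1 of 29, against 23.0% of all features. Of the 29 differences 15 were negative, where 57.6% of all features were negative. The median difference of the members was -0.02 on the log2 scale, and that of all features -0.06. The sign of the members' median rested on single livers: it was -0.33 without TBBC replicate 3, 0.19 without vehicle replicate 3, 0.15 without TBBC replicate 1 and 0.17 without TBBC replicate 2, with 0 members past the threshold each time, against 0.353% to 1.24% of all features. A missed threshold does not show that the groups were alike. The 95% interval lay within a 2-fold change in either direction for 15 members and reached beyond it for the other 14.

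**Figure D1:**
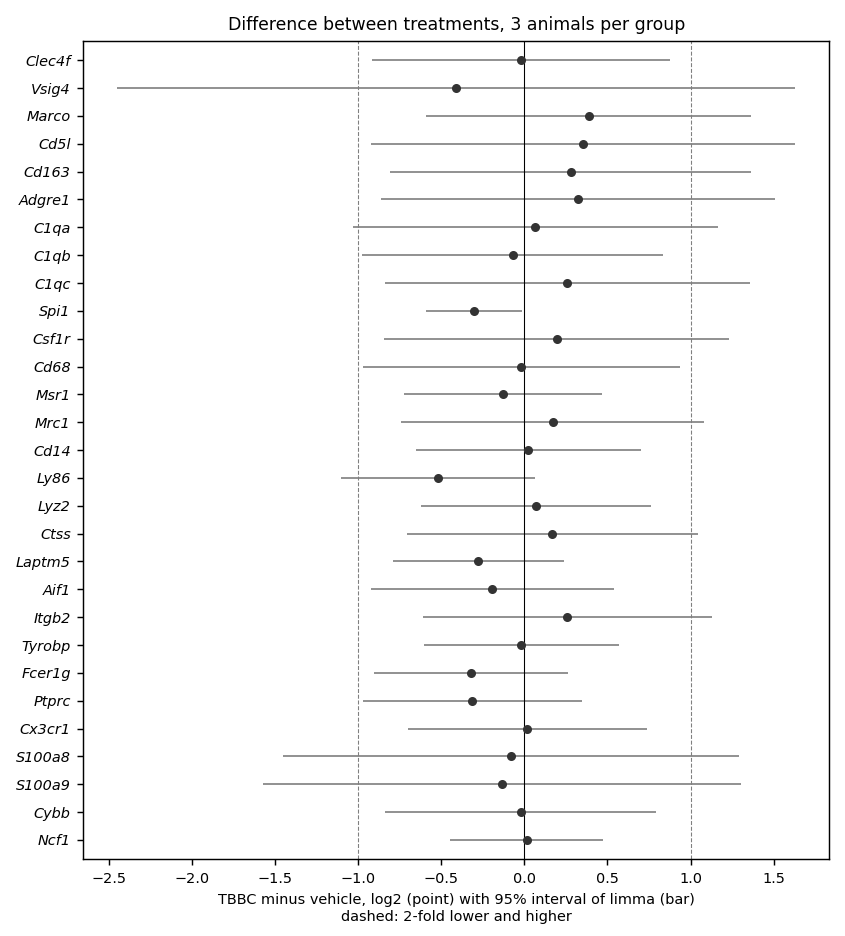
Difference between TBBC and vehicle (log2, x axis) of the 29 tested members; points are estimates and bars are 95% intervals of limma with 3 animals per group. The bars of all members but Spi1 cross 0, and the bar of Vsig4 is the widest of the 29.

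Clec4f encodes a galactose-binding lectin of Kupffer cells. It read 5.62, 5.08 and 6.28 in vehicle livers and 5.27, 5.39 and 6.26 in TBBC livers. The replicate 3 liver was the highest of each group, and the groups overlapped. The difference was -0.02 ± 0.37 (SE, n = 3 per group), with a 95% interval from 0.530-fold to 1.83-fold.

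Vsig4, the complement receptor that captures opsonised particles, read -0.46, -1.17 and 0.98 with vehicle and -0.42, -2.25 and 0.80 with TBBC. The highest liver of each group stood far above its companions, by 3.47-fold over their mean (of log2 values) in the vehicle group and by 4.40-fold in the TBBC group. Its difference of -0.41 ± 0.85 had a 95% interval from 0.183-fold to 3.10-fold.

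Marco, a scavenger receptor for bacteria and dust, read 0.05, -0.46 and 0.55 with vehicle and 0.06, -0.02 and 1.27 with TBBC. Cd5l, a secreted inhibitor of apoptosis made by macrophages, read 1.83, 1.40 and 3.01 with vehicle and 2.34, 1.67 and 3.29 with TBBC. In both genes replicate 3 was again the highest of its group. Their differences were 0.39 ± 0.41 for Marco and 0.35 ± 0.53 for Cd5l.

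Cd163, the scavenger receptor for haemoglobin bound to haptoglobin, read 0.67, 0.34 and 1.47 with vehicle and 0.40, 0.94 and 1.97 with TBBC. Adgre1, the macrophage adhesion receptor known in mouse as F4/80, read -0.23, -0.66 and 0.90 with vehicle and 0.19, -0.31 and 1.11 with TBBC. The groups overlapped in both. Cd163 differed by 0.28 ± 0.45, and its 3 probes gave 0.16 to 0.51, while Adgre1 differed by 0.32 ± 0.49. Of the 6 tested Kupffer cell identity genes 0 were past the threshold, their median difference was 0.30, and in all 6 the pair of replicate 3 livers was higher than every other liver. That median rested on single livers: it was 0.00 without vehicle replicate 2, -0.12 without TBBC replicate 3, 0.62 without vehicle replicate 3 and 0.51 without TBBC replicate 2.

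C1qa, C1qb and C1qc encode the chains of C1q, the recognition molecule of the classical complement pathway, which macrophages secrete. C1qa read 3.65, 3.55 and 4.75 with vehicle and 3.53, 3.71 and 4.90 with TBBC. C1qb read 5.37, 5.20 and 6.17 with vehicle and 5.07, 5.23 and 6.22 with TBBC. C1qc too was highest in replicate 3, at 1.21, 0.86 and 2.15 with vehicle and 1.06, 1.45 and 2.50 with TBBC. For C1qa and C1qb the 4 livers of replicates 1 and 2 lay close together and the 2 livers of replicate 3 lay apart. For C1qc those 4 livers were more spread, from 0.86 to 1.45, below both livers of replicate 3. The replicate 3 liver exceeded the mean of the other 2 by 2.22-fold for C1qa in the vehicle group and by 2.43-fold in the TBBC group. Treatment differences were small beside this, at 0.07 ± 0.46 for C1qa, -0.07 ± 0.38 for C1qb and 0.26 ± 0.46 for C1qc. The other probe of C1qc gave -0.01, which made it the only member whose tested probes differed in sign.

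Csf1r, the receptor that macrophages need for survival, read -0.89, -0.999 and 0.05 with vehicle and -0.65, -1.01 and 0.41 with TBBC. Spi1 behaved differently, at -3.21, -3.06 and -3.16 with vehicle and -3.39, -3.61 and -3.33 with TBBC. All 3 vehicle livers were above all 3 TBBC livers, and the replicate 3 livers were not the highest pair. Spi1 was the only member whose groups did not overlap (1 of 29, against 31.1% of all features). Its difference was -0.30 ± 0.12 with an unadjusted p of 0.0439 and an adjusted p of 0.206 by limma, so it did not pass. With arrays scaled on their spike-in controls the Spi1 difference was -0.08. Csf1r differed by 0.20 ± 0.43.

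Among scavenger and pattern receptors, Cd68, a protein of macrophage lysosomes, read 2.79, 2.64 and 3.57 with vehicle and 2.59, 2.57 and 3.79 with TBBC. Its difference was -0.02 ± 0.40. Mrc1, the mannose receptor, which sinusoidal endothelium also expresses, read 1.24, 1.06 and 2.45 with vehicle and 1.40, 1.84 and 2.03 with TBBC. For Cd68 and Mrc1 replicate 3 was the highest of each group, although TBBC replicate 2 came close for Mrc1. Mrc1 differed by 0.17 ± 0.38, and its other probe gave 0.54. Msr1, the scavenger receptor for modified lipoproteins, differed by -0.13 ± 0.25, and its vehicle replicates 2 and 3 both read -0.86.

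Cd14, the lipopolysaccharide co-receptor, ran against most other macrophage genes in the TBBC group but not in the vehicle group. It read 3.37, 3.32 and 3.52 with vehicle and 3.93, 3.57 and 2.79 with TBBC. TBBC replicate 3, among the richest livers for most members, was the lowest of all 6 for Cd14, at 0.513-fold of the mean of the other 2 TBBC livers. The difference between treatments was 0.02 ± 0.28. Ly86, which encodes MD-1, a partner of the receptor RP105, read -0.32, -0.08 and 0.20 with vehicle and -0.52, -1.04 and -0.20 with TBBC. Its difference of -0.52 ± 0.24 was the most negative of the members (adjusted p = 0.258 by limma), its other probe gave -0.32, and the groups overlapped at the edge.

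Ctss, the lysosomal protease cathepsin S, read 3.15, 2.96 and 3.83 with vehicle and 2.87, 3.44 and 4.14 with TBBC, a difference of 0.17 ± 0.37. Lyz2, the lysozyme of phagocytes, read 4.32, 3.84 and 4.21 with vehicle and 4.06, 3.72 and 4.79 with TBBC. TBBC replicate 3 was the highest for Lyz2, but vehicle replicate 1 was above vehicle replicate 3. Its difference was 0.07 ± 0.29, and its 2 probes gave 0.07 and 0.36. The lysosomal membrane protein gene Laptm5 differed by -0.28 ± 0.21, and Aif1, which encodes the actin-bundling protein IBA1, by -0.19 ± 0.31. Replicate 3 was the highest of its group for both.

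Tyrobp and Fcer1g encode adaptor chains that carry signals from activating receptors. Tyrobp read 3.80, 3.92 and 4.32 with vehicle and 3.81, 3.70 and 4.48 with TBBC. Fcer1g read 2.89, 2.86 and 3.19 with vehicle and 2.61, 2.22 and 3.15 with TBBC. The spread among livers was narrower than for the Kupffer cell genes, with the same livers on top. Tyrobp differed by -0.02 ± 0.25 and Fcer1g by -0.32 ± 0.24. Itgb2, the common beta chain of leukocyte integrins, differed by 0.26 ± 0.36, and Ptprc, the leukocyte phosphatase CD45, by -0.31 ± 0.28. The 5 probes of Ptprc ran from -0.42 to -0.06. Itgam, the integrin chain CD11b, was well above background on vehicle replicates 2 and 3 and on TBBC replicate 3 but on no other array, so it was not tested and no fold is given.

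Cybb and Ncf1 encode the catalytic and an organising subunit of the phagocyte NADPH oxidase. Cybb read -2.89, -3.11 and -2.26 with vehicle and -3.06, -3.15 and -2.11 with TBBC, a difference of -0.02 ± 0.34. Ncf1 read 0.79, 0.84 and 0.91 with vehicle and 0.65, 0.64 and 1.28 with TBBC. For Ncf1 vehicle replicate 3 was barely above its companions and TBBC replicate 3 clearly so. The difference was 0.01 ± 0.19.

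The markers of blood-derived cells gave a less uniform picture. S100a8 read 0.11, -0.08 and -0.37 with vehicle and -1.09, -0.71 and 1.21 with TBBC. S100a9, its partner in calprotectin, read 1.28, 1.01 and 0.73 with vehicle and 0.07, 0.18 and 2.36 with TBBC. For both genes TBBC replicates 1 and 2 were the lowest of the 6 livers and TBBC replicate 3 the highest, while vehicle replicate 3 was the lowest of its own group. TBBC replicate 3 exceeded the mean of the other 2 TBBC livers by 4.32-fold for S100a8 and 4.71-fold for S100a9. The differences were -0.08 ± 0.57 and -0.14 ± 0.60. Without TBBC replicate 3 they were -0.79 and -0.88 and still did not pass (limma adjusted p = 0.160 and 0.121).

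Neither probe of Ccr2 was well above background on any array. Of the 2 probes of Cx3cr1, the fractalkine receptor, 1 was not well above background on any array. The other read 1.11, 2.05 and 0.91 with vehicle and 1.58, 1.21 and 1.34 with TBBC, with vehicle replicate 3 the lowest liver, and differed by 0.02 ± 0.30. As the probes disagree, the value of Cx3cr1 is uncertain. The granule genes Elane, Ltf, Mmp8 and Mmp9 were not well above background on any array either, and Mpo had no named probe.

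**Figure D2:**
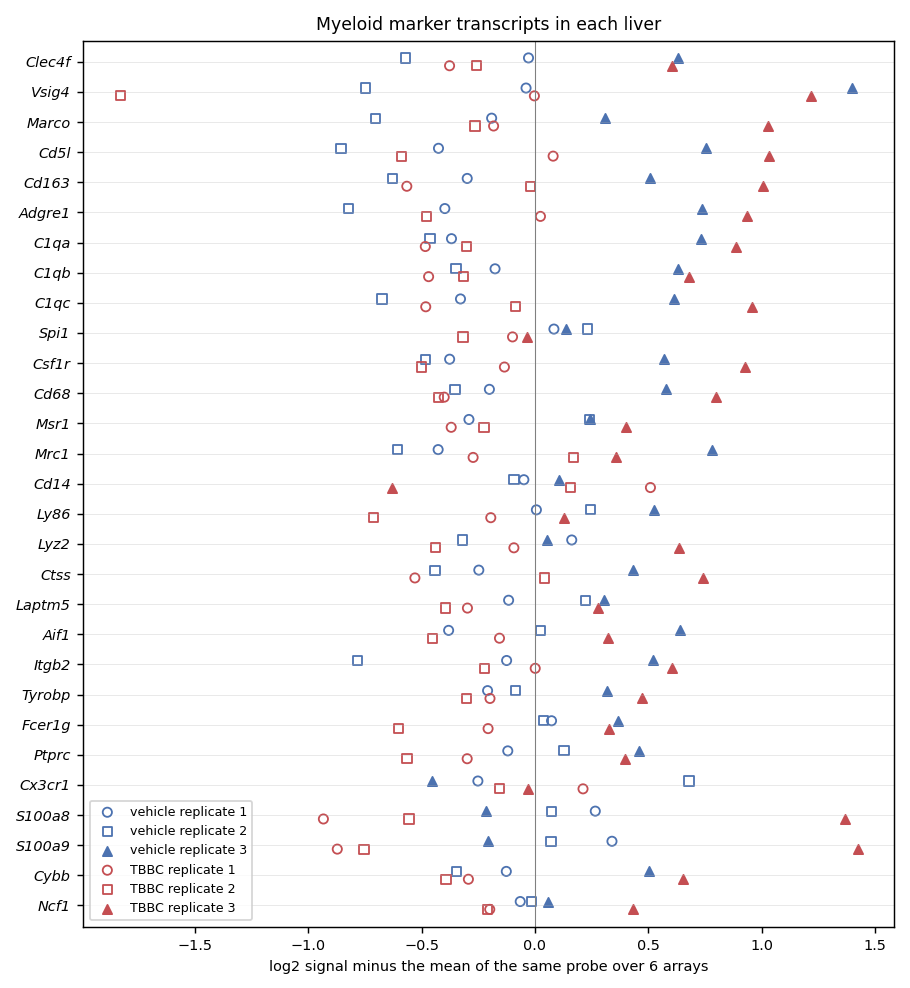
Signal of each tested member in each of the 6 livers (log2, centred on the mean of that probe, x axis); blue marks are vehicle and red marks TBBC, and filled triangles are replicate 3. The triangles of both colours lie to the right of the open marks in most rows, with Spi1, Cd14, Cx3cr1 and the calgranulins as visible exceptions.

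Vehicle replicate 3 was the highest vehicle liver in 24 of 29 members, against 8843 of all 29326 features. TBBC replicate 3 was the highest TBBC liver in 27 of 29 members, against 8438 of all 29326 features. In 22 of 29 members these 2 livers were higher than all 4 others, against 5.38% of all features. For the livers of replicate 1 and of replicate 2 the count was 0 of 29, against 3.28% and 4.96% of all features. This count was chosen after the values were seen and has no test. The narrowest of the 22 was Msr1, whose margin was 0.000267. The 7 exceptions were Spi1, Cd14, Ly86, Lyz2, Cx3cr1, S100a8 and S100a9. For some genes this depended on the probe. The other tested probe of Ly86 did show the pattern, while the other probe of Ncf1 and some probes of Ptprc did not. Over the 50 tested probes of the members, 38 showed the pattern. The 22 became 21 to 25 under 6 other ways of scaling the arrays, correcting background or joining probes.

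The sum of the members' signals, relative to the 75th percentile, was 212.7, 189.4 and 330.6 in vehicle livers and 191.8, 190.5 and 353.3 in TBBC livers. Bright probes such as those of Clec4f and C1qb weigh most in this sum. With each member centred on its own mean, the median member lay at -0.18, -0.35 and 0.50 in vehicle livers. In TBBC livers it lay at -0.21, -0.32 and 0.64. The 2 groups thus held the same arrangement, with 1 rich liver and a pair of poorer ones. The median excess of replicate 3 over the mean of the other 2 livers was 0.76 in the vehicle group and 0.92 in the TBBC group, where over all features it was -0.04 and -0.02. The excess was more than 2-fold in both groups for 5 members, namely Vsig4, Cd5l, Adgre1, C1qa and C1qc, a count not taken over all features. The median within-group standard deviation of the members was 0.56, against 0.20 over all features. With both replicate 3 arrays set aside it was 0.24, against 0.17.

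**Figure D3:**
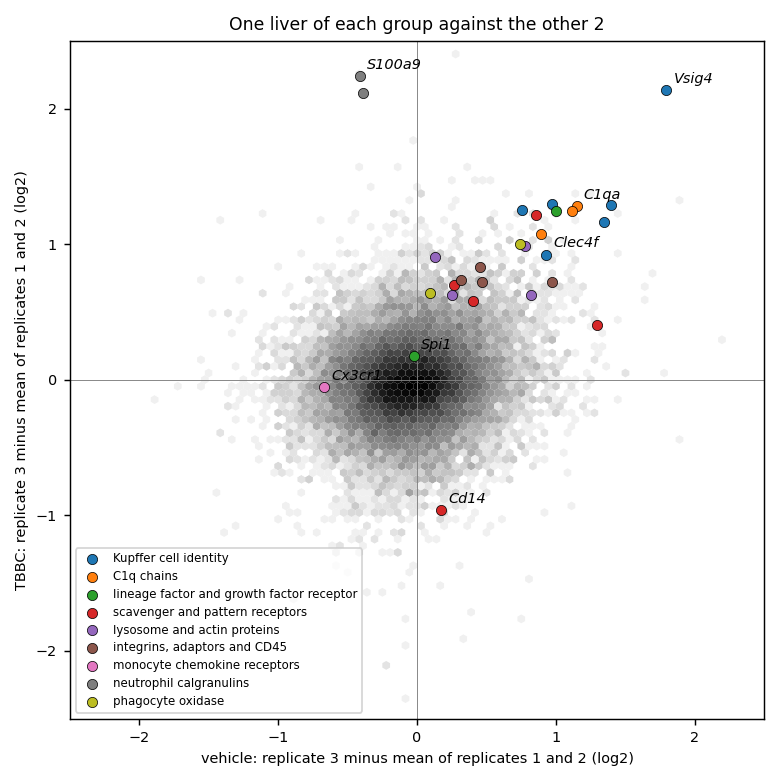
Replicate 3 minus the mean of replicates 1 and 2 (log2) in the vehicle group (x axis) and in the TBBC group (y axis); grey shading is the density of all 29326 tested features on a log scale and coloured points are the members by role, with 100 features beyond the axis ends at 2.5 not drawn. Most members lie to the upper right of the grey cloud, S100a8 and S100a9 are high on the y axis alone, and Cd14 is low on it.

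With both replicate 3 arrays left out, an alternative chosen after the values were seen, 0 of 29 members passed, against 0.214% of all features, and 2 had an unadjusted p under 0.05, against 18.1% of all features. These were S100a8 at -0.91 and S100a9 at -1.02 (limma adjusted p = 0.162 and 0.128). The median difference was then -0.13.

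Array measures moved with the pattern in part. The 75th percentile was the highest of its group on both replicate 3 arrays, at 577.9, 465.2 and 598.1 in the vehicle group and 616.1, 626.5 and 638.2 in the TBBC group. The spike-in level relative to that percentile was the lowest of its group on both, at 4.17, 4.48 and 4.02 and at 4.07, 3.97 and 3.97 on the log2 scale, with TBBC replicates 2 and 3 nearly equal. The share of probes well above background was the highest of its group on vehicle replicate 3 (62.2%) and the lowest of the 6 on TBBC replicate 3 (60.0%). The 2 arrays were on different slides. The part of these measures in the pattern was not tested.

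Other genes of the same biology were taken from lists, and none of the myeloid lists in the next sentences had a member past the threshold. Of 4 tested partners of the oxidase, 3 were highest in the same 2 livers, among them Cyba, the membrane subunit, at 3.65, 3.96 and 4.22 with vehicle and 3.92, 3.57 and 4.35 with TBBC. Of 14 Fc receptors and their kinases, 8 showed the pattern, such as Fcgr2b, the inhibitory Fc receptor of macrophages and endothelium, at 2.28, 2.52 and 3.71 with vehicle and 3.04, 3.28 and 3.51 with TBBC. Of 14 inflammatory cytokine and sensor genes 6 did, including Tlr2, a receptor for bacterial lipoproteins, at -0.88, -0.83 and -0.03 with vehicle and -0.83, -1.19 and 0.14 with TBBC. These members differed between treatments by 0.00 ± 0.24 for Cyba, 0.44 ± 0.37 for Fcgr2b and -0.05 ± 0.39 for Tlr2.

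Other macrophage lists did not share the pattern to that degree. Hepatocytes express some genes of these lists, among them Nr1h3 and Cd36, so a low count need not describe macrophages. Of 13 tested niche and lineage factors of Kupffer cells, 0 had the 2 replicate 3 livers on top. Nr1h3, which encodes the oxysterol receptor LXR alpha and is also expressed by hepatocytes, differed by -0.02 ± 0.13. In the lysosomal list 5 of 18 showed the pattern, and Ctsb and Ctsl differed by 0.33 ± 0.12 and 0.67 ± 0.20 without passing (limma adjusted p = 0.178 and 0.121). The counts were 2 of 9 for iron handling (median difference 0.09), 2 of 12 for chemokines and their receptors (median -0.08), 3 of 10 for lipid-associated macrophage genes (median 0.16), 1 of 10 for efferocytosis (median 0.14) and 1 of 6 for neutrophil granule genes (median -0.0042). In the efferocytosis list Cd36, a fatty acid transporter that hepatocytes express too, rose by 2.16 ± 0.27 (limma adjusted p = 0.0197). Without 1 array its call held in 1 of 6 cases, without vehicle replicate 3, and the adjusted p ran from 0.0113 to 0.0794.

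Antigen presentation stood apart from the macrophage genes. All 9 tested members of the dendritic cell and antigen presentation list had a negative difference, against 57.6% of all features. Their median was -0.81, and 0 of 9 passed, against 3.08% of all features. At an unadjusted p under 0.05 the count was 5 of 9, against 23.0% of all features. Cd74, the invariant chain of class II molecules, read 3.22, 4.06 and 3.40 with vehicle and 2.61, 2.78 and 2.84 with TBBC. The class II gene RT1-Bb read 2.02, 2.57 and 1.90 with vehicle and 0.91, 1.17 and 1.39 with TBBC. In neither did the groups overlap (5 of 9 genes in this list, against 31.1% of all features), and vehicle replicate 2 was the highest liver. The differences were -0.81 ± 0.23 for Cd74 and -1.01 ± 0.22 for RT1-Bb (limma adjusted p = 0.110 and 0.0651). In this list 0 of 9 genes had the 2 replicate 3 livers on top. Negative differences were not particular to it. They were found in 11 of 12 T, B and NK cell markers (median -0.31) and 10 of 13 general leukocyte genes (median -0.07).

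Markers of other liver cells were set beside the myeloid pattern. Sinusoidal endothelium shared it in 6 of 10 tested genes. Its summed signals were 41.6, 49.3 and 80.3 in vehicle livers and 54.3, 60.6 and 61.7 in TBBC livers. Replicate 3 thus stood clearly above its companions in the vehicle group only. The median excess of replicate 3 over the other 2 livers was 0.78 in the vehicle group and 0.32 in the TBBC group. Fcgr2b, which is on this list too, was 1 of the 6. T, B and NK cell markers shared it in 5 of 12 genes (sums 4.43 to 4.99 and 3.31 to 4.56), while Cd3e, Cd2, Cd5 and Klrb1 were not well above background on any array. General leukocyte genes did so in 5 of 13 (sums 23.4 to 28.3 and 19.1 to 27.6). Biliary markers had 2 of 7 (sums 1.84 to 2.12 and 3.35 to 4.83).

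Hepatocyte, stellate cell and blood markers did not share the pattern. The count was 0 of 10 for hepatocyte genes, with summed signals of 5959 to 6955 in vehicle and 5182 to 5330 in TBBC livers, lowest in replicate 3 in both groups. It was 0 of 11 for stellate cells and fibroblasts (sums 28.6 to 38.4 and 27.7 to 36.0), with Lum not well above background on any array. Red cell and platelet markers also gave 0 of 8 (sums 448.8 to 778.6 and 573.9 to 732.2). In the stellate and the blood list vehicle replicate 3 had the lowest sum of its group and TBBC replicate 3 the highest. TBBC replicate 3 was the highest TBBC liver in 7 of 8 red cell and platelet genes and in 5 of 11 stellate and fibroblast genes. The part of these cells in the myeloid values was not tested.

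In these lists of other cell types 4 genes were past the threshold. With the macrophage lists included, 5 of 186 tested genes were, against 3.08% of all features. Epcam, of biliary epithelium, rose by 1.83 ± 0.21 and Rgs5, of pericytes and stellate cells, by 0.95 ± 0.12. The receptor gene Pdgfrb fell by 0.73 and the plasma protein gene Ahsg by 0.83 on the log2 scale (limma adjusted p of the 4 from 0.0147 to 0.0461). Leaving out any 1 array ended the calls of Rgs5, Pdgfrb and Ahsg, with adjusted p values up to 0.0821, 0.141 and 0.105. That of Epcam was lost without vehicle replicate 1 (adjusted p = 0.0637) and with both replicate 3 arrays left out (adjusted p = 0.0838).

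**Figure D4:**
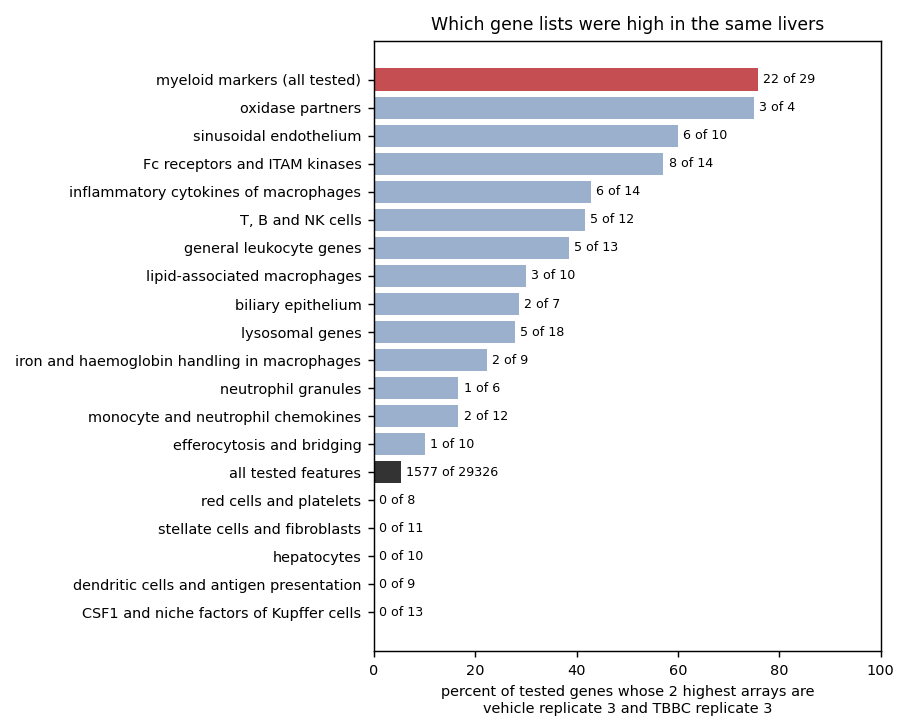
Share of the tested genes of each list (percent, x axis) whose 2 highest arrays were vehicle replicate 3 and TBBC replicate 3; the red bar is the 29 myeloid markers, the black bar all tested features, and labels give the counts. The myeloid markers stand at 22 of 29 and the oxidase partners at 3 of 4, whereas 5 lists, hepatocytes among them, stand at 0.

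Promoters are shown because many members varied together between livers. PU.1 binds purine-rich DNA around the letters GAGGAA, known as the PU box, in myeloid genes. RefSeq's table for the build GRCr8 held the stretch from 250 bases before to 50 bases after the start of 23 members. The letters GAGGAA, or TTCCTC on the other strand, occurred in 15 of these 23 and in 27.6% of all 33469 promoters of that length. The longer string AGGAAGT (either strand) was in 6 of 23 and in 8.41% of all, and GAGGAAGT, which overlaps both, was in 1 of 23 (Ctss) and in 2.42%. These strings were picked with the members' sequences in view, and a match describes letters only. The sequences of 5 members with 1 rich liver per group follow, 5′ to 3′ in lower case, with GAGGAA or TTCCTC in capitals:
Cd68 promoter, chr10:54882392-54882691, minus strand: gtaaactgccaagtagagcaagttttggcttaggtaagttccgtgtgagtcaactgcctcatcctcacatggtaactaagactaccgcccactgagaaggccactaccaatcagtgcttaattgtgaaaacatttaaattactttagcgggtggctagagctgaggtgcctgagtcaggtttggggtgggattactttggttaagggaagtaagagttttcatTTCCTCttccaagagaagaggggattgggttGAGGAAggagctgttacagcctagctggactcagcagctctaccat
C1qb promoter, chr5:154407778-154408077, minus strand: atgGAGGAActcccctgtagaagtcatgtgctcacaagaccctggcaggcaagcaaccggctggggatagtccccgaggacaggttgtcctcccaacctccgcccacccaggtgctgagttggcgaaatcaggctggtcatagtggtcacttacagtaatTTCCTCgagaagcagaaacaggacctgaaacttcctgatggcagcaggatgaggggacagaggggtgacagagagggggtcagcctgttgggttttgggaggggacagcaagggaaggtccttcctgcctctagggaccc
Marco promoter, chr13:34201206-34201505, minus strand: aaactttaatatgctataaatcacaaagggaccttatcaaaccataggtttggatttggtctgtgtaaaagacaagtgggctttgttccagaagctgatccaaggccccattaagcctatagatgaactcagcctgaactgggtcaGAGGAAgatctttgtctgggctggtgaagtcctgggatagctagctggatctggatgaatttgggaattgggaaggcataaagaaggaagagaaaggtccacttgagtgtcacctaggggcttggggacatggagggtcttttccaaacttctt
Adgre1 promoter, chr9:2329190-2329489, plus strand: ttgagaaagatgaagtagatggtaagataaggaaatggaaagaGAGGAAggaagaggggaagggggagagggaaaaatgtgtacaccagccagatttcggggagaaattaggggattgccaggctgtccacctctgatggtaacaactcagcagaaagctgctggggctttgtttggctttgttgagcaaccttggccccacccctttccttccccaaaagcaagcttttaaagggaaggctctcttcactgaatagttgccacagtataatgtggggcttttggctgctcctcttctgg
Vsig4 promoter, chrX:65179659-65179958, minus strand: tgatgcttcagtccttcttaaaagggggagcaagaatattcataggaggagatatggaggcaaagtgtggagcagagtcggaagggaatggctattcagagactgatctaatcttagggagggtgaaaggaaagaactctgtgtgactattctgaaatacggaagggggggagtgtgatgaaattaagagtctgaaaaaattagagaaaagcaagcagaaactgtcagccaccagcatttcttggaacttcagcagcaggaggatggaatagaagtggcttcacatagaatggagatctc

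The Cd68 promoter held a match that began 27 bases upstream of the start and another just after the start. That of C1qb held 1 at 247 bases and 1 at 90 bases upstream, Marco 1 at 104 bases and Adgre1 1 at 207 bases. Vsig4, the member with the widest spread between livers, had none in this window. Promoters with and without the letters occurred on both sides of the pattern: C1qa and Clec4f had none and showed it, while Cd14, Lyz2 and S100a9 had a match and did not.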

How the data were processed

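Liver RNA of 6 rats was labelled with Cy3 and hybridised to 1-colour Agilent arrays, 1 per animal, 3 per group. Per the file headers, the authors obtained spot intensity, with background subtracted, from Agilent's scanner software in release 10.7.1.1. The submitters' processing notes call it Feature Extraction 10.7. The deposited value table holds the same intensity on a linear scale, each column times 1 constant so that its 75th percentile is near 1, not centred, with medians of 0.0972 to 0.108; it served as an alternative.

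Control spots (1439 per array) and 25 probes with an outlier flag were left out. Each processed intensity was taken to log2 and set relative to the 75th percentile of its array. A probe entered the test if every array of either group read it well above background. Symbols came from RefSeq accessions of the assembly GRCr8, which named 28206 of 61537 probes (45.8%). A gene was represented by its brightest probe. A two-sided moderated test without covariates (limma 3.58.1, R 4.3.3) was run over all 29326 features, with Benjamini-Hochberg adjustment and a threshold of 0.05, and was tested on simulated data. The labels speak of separate animals, so p-values measure the spread between animals.

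Members and lists were chosen with earlier results of these data known. All members were to be named. Of each other list the rule took up to 4 genes past the threshold, or where none passed up to 2 of the brightest; other genes named were chosen after their values were seen. Alternatives were quantile, median and spike-in scaling, normexp with an offset of 50, 2 other filters, averaged probes, the deposited table, a robust trended prior, weighted arrays, a block on replicate number and leaving out each array. Leaving out both replicate 3 arrays was added after the data were seen.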

Additional observations from a re-analysis of the deposited data

How the results depend on the processing

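Under all 18 alternatives 0 members passed the threshold, with a lowest adjusted p of 0.121 (S100a9 without TBBC replicate 3, where 7 of 29 members had an unadjusted p under 0.05, against 17.6% of all features), and 0 of 50 member probes passed alone or with quantile normalization. The median member difference ran from -0.33 to 0.20, and from -0.33 to 0.19 when 1 array was left out. Spike-in scaling gave 0.20 and moved the median of all features from -0.06 to 0.16. Of 522 single member values under the alternatives, 1 moved by more than the spread between replicates (Spi1 with spike-in scaling), and 79 changed sign, none of them past the threshold. Of the genes of the other lists 5 were past the threshold, 7 with quantile normalization, 0 to 3 without 1 array and 1 with both arrays of replicate 3 left out; fewer arrays leave fewer residual degrees of freedom. Over all features 902 passed, 1582 with normexp, 194 without a filter, 211 with the replicate block and 104 to 365 without 1 array. The labels do not tie animals of the same replicate number together. Deviations from the group means correlated at 0.004, -0.02 and 0.14 for the pairs of numbers 1, 2 and 3. Pairs of unlike numbers ran from -0.10 to 0.09, so the pair of number 3 was the highest, at 0.14 without the members too. Whether those 2 animals shared some factor was not tested. With that replicate block 0 members passed, 2 of 29 had an unadjusted p under 0.05 (Cd5l and Ly86, against 20.8% of all features) and the median was -0.02; the calls of Epcam, Cd36, Rgs5, Pdgfrb and Ahsg were lost, with adjusted p values of 0.0513 to 0.116. Ccr2 and Itgam lacked signal over background and entered the fit without a filter on dim probes, where they did not pass either.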

Other observations

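Among the 11235 named features, ordered after the values were seen by how far both replicate 3 livers stood above the other 4, Vsig4 came first and C1qa sixth, and 4 of the first 20 were members (with C1qb and Cd68). The other 16 included the sialic acid lectin Siglec5 at rank 2 and the ficolin gene Fcna at rank 4, which encodes a lectin of the complement system. The receptor kinase gene Axl stood at rank 11, the folate receptor gene Folr2 at rank 12 and the properdin gene Cfp at rank 17. Genes of other kinds ranked as high. The interferon response genes Ifit1, Oasl and Ifi47 stood at ranks 3, 5 and 9, and Acot1 and Pltp at ranks 7 and 8. Vehicle replicates 1 and 2 were very dim for Ifit1 (-7.27 and -6.48) and Oasl (-5.10 and -5.61). The Ccr2 probes, not well above background on any array, read at similar levels, so the ranks of Ifit1 and Oasl may rest on values near the floor. Fcna read 0.54, 0.40 and 1.70 with vehicle and 0.46, 0.61 and 1.84 with TBBC. These ranks describe 6 arrays and have no test.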
